A study of Arabidopsis thaliana with 18 samples.

Results

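The comparison is between the SVP:GFP ChIP-seq peaks called in plants without functional *FLC* (*flc-3*) and those called in plants with it (WT). All peaks of both deposited lists were taken, 246 in *flc-3* and 523 in WT, which is 769 of the 1503 peaks in the 4 lists of the study. The other lists hold 419 peaks of FLC in *svp-41* and 315 peaks of FLC in WT. A peak was called kept when it overlapped a peak of the other genotype by 1 bp or more on the same chromosome. A peak of *flc-3* with no overlap was called gained, and a peak of WT with no overlap was called lost. In both genotypes *pSVP:SVP:GFP*, a fusion under the *SVP* promoter, was expressed in the *svp-41* mutant of Columbia-0 with an introduced *FRI*. SVP:GFP in *flc-3* denotes such plants with the *flc-3* allele, and SVP:GFP in WT denotes those with the functional *FLC* allele. Chromatin was precipitated with an antibody against GFP. Above-ground tissue of 2-week-old *A. thaliana* seedlings was used. The sample labels give long days and the methods of the study short days for these plants. In both datasets of FLC an antiserum against FLC was used on plants without the fusion, in *svp-41* *FLC* *FRI* and in *SVP* *FLC* *FRI* (WT). Each genotype was represented by 3 samples, and *35S:GFP* plants, also with 3 samples, served as the control for both. The samples of a genotype were merged into 1 list by the authors, so no value has a replicate error and the depth behind a peak is unknown. No difference between genotypes was tested here. The study itself tested peak shape across replicates and found significant differences at far fewer sites than are called lost or gained here. A lost or gained peak is therefore a difference in calls, not a tested change in binding.

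SVP and FLC are MADS-box transcription factors that repress the transition to flowering and can form a complex. SVP acts in the response to ambient temperature, whereas FLC is activated by FRI and silenced by vernalization. MADS-box dimers recognise the CArG-box, a run of A and T bases between CC and GG, and the G-box (CACGTG) is the core site of bHLH and bZIP factors. A summit is the position of the highest signal in a peak.

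The sequences below show a CArG-box or G-box lying within 100 bp of a summit at sites that the results turn on. All are read from the plus strand of TAIR10.1, 5′ to 3′, with the motif in capitals. The first 4 CArG-boxes are at kept sites, of which *SPA2* and *DRB5*/*GDPD2* are the strongest of the *flc-3* list. They lie 3 bp from the *flc-3* summit at *SPA2*, 2 bp at *DRB5*/*GDPD2*, 27 bp at *SHP2* and 10 bp at *SMZ*. The next 2 are at the gained sites of *MIR156E* and *ZF14*, 18 bp and 2 bp from the *flc-3* summit. The last 3 are at the lost sites of *TEM1*, *TOE1* and *SIP3*, 24 bp, 41 bp and 63 bp from the WT summit.
SPA2, chr4:6771967-6771996: ctcttgtttgCCAAATTTGGgatatttctg
DRB5/GDPD2, chr5:16440835-16440864: tacttgatttCCAAAAATGGgttttttcaa
SHP2, chr2:17819837-17819866: aaagggattaCCAAAAAAGGaaagtttcca
SMZ, chr3:20379158-20379187: atcggcctttCCTTATTTGGtaagactaaa
MIR156E, chr5:3865686-3865715: gtgtgttttgCCTAAAAAGGaaagttgtca
ZF14, chr1:21655801-21655830: atattcgtagCCAAAAATGGaaaacaattt
TEM1, chr1:8983899-8983928: attcgtccttCCATATTTGGaacatgacgt
TOE1, chr2:12228647-12228676: tgttgttggtCCTTTTTTGGcagtggtata
SIP3, chr4:15066972-15067001: gttatcactcCCTAATAAGGgtatctacgt

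G-boxes within 100 bp of the summit are shown for the kept sites of *AGL19* and *MIR156F*, 38 bp and 91 bp from the *flc-3* summit. Those at the lost sites of *DDF1*, *PIF5* and *TOE2* lie 20 bp, 5 bp and 94 bp from the WT summit.
AGL19, chr4:12028453-12028482: gggagatcttggCACGTGtccatattaacc
MIR156F, chr5:9133324-9133353: accccattacgaCACGTGacaggctgggca
DDF1, chr1:4292251-4292280: agctgtgagtaaCACGTGggatttccgtgg
PIF5, chr3:21830552-21830581: caggatgaccgaCACGTGgcgaattgtcag
TOE2, chr5:24205526-24205555: atctctgttgtaCACGTGgctttatactac

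Of the 246 peaks in *flc-3*, 148 (60.2%) overlapped a peak in WT and 98 (39.8%) were gained. Of the 523 peaks in WT, 144 (27.5%) overlapped a peak in *flc-3* and 379 (72.5%) were lost. The numbers of kept peaks differ because 4 peaks in WT each overlapped 2 peaks in *flc-3*, which gives 148 pairs. The classes were well separated in distance. The smallest overlap in a pair was 157 bp, whereas the closest gained peak lay 140 bp from a peak in WT and the next 399 bp away. Only 4 of the 379 lost peaks had an *flc-3* summit within 1000 bp, and 2 of the 98 gained peaks had a WT summit within 1000 bp.

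The peaks had been assigned by the authors to 303 neighbouring genes in *flc-3* and 773 in WT. Both lists shared 220 genes, which is 72.6% of the genes in *flc-3* and 28.5% of those in WT. A further 83 genes (27.4%) were found in *flc-3* only and 553 (71.5%) in WT only. Shared genes came from shared sites, since 219 of the 220 were assigned to both peaks of an overlapping pair. The exception was *SZF1*, a zinc finger gene that had separate peaks in the genotypes. Of the shared genes, 18 also had a lost peak in WT and 3 also had a gained peak in *flc-3*. An example of the first is *CBF1*, a cold-induced activator of the AP2/ERF family, whose upstream site was kept while a peak between *CBF1* and *CBF3* was lost.

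To describe the genes by their roles, 143 genes in 11 lists of flowering, light, clock, hormone and cold genes were examined. Of these, 20 had a peak in *flc-3* and 41 in WT, against 1.02% and 2.64% of all 27444 protein-coding genes. The lists were chosen with earlier results of these data known, so a share above that of all genes is built into them. Peaks in both genotypes were found at 17 of the listed genes, in *flc-3* only at 3 and in WT only at 24. Loss therefore concerned 58.5% of the listed genes bound in WT, compared with 71.5% of all genes bound in WT.

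**Figure D1:**
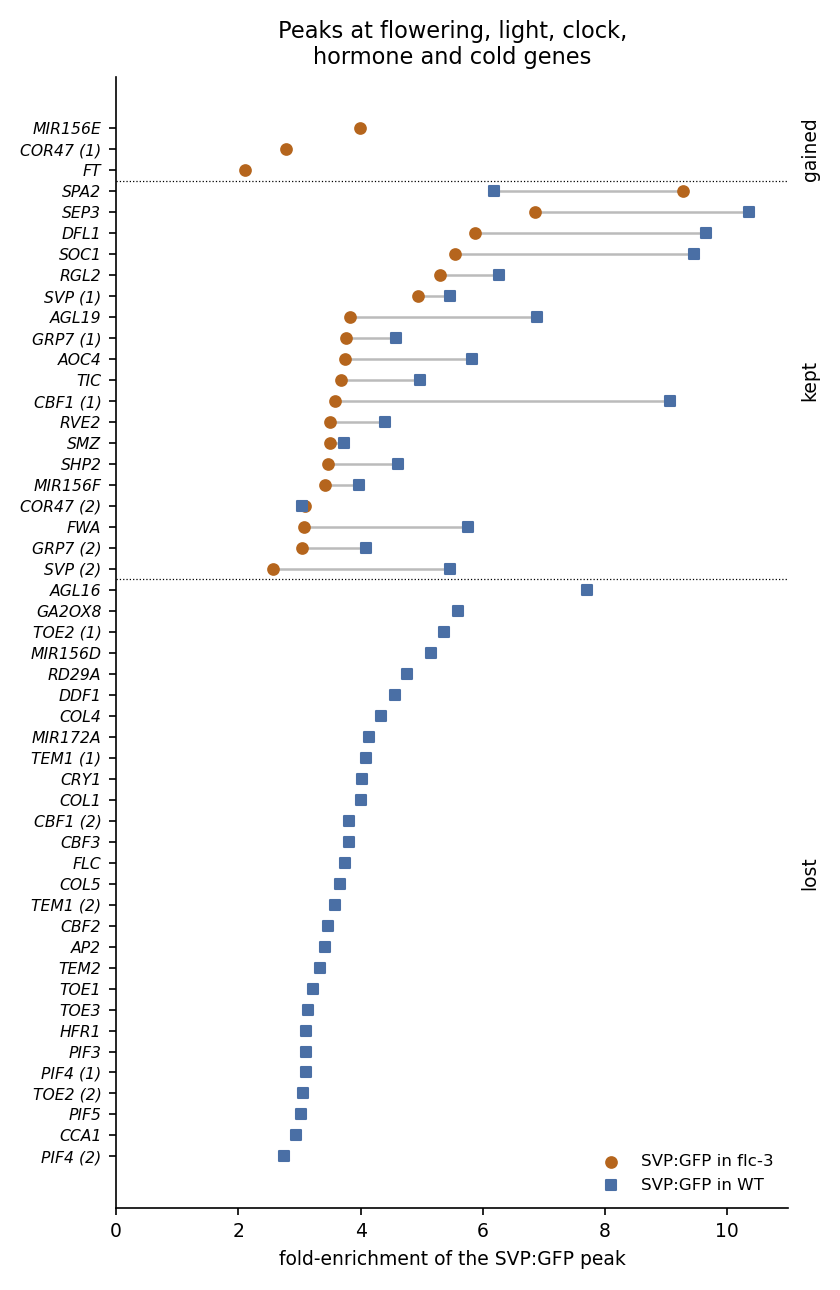
Fold-enrichment over the control (x axis) of every SVP:GFP peak at the listed genes other than *CLF*, in *flc-3* (circles) and in WT (squares). Grey lines join the values of a kept site, the numbers in brackets count the peaks of a gene, and 1 lost peak is shown at both *CBF1* and *CBF3*. *SPA2* is the kept site with a clearly higher value in *flc-3*, at 9.27 against 6.18 in WT.

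The lists of floral promoters and of floral organ MADS-box genes held 4 genes bound in WT, and all 4 were also bound in *flc-3*. Of all genes bound in WT, 28.5% were bound in *flc-3* as well. All 4 are MADS-box genes, which for *SEP3* and *SHP2* was fixed by the choice of list. Of 3 MADS-box floral repressor genes bound in WT, 1 was also bound in *flc-3*. These counts rest on few genes. By −log10(*P*) in WT the 4 genes ranked 1 (*SEP3*), 7 (*SOC1*), 55 (*AGL19*) and 163 (*SHP2*), and 72.3% of the strongest quartile of WT peaks was kept. *SEP3*, which acts in floral organ identity, had a fold-enrichment of 6.85 in *flc-3* and 10.4 in WT, where it was the strongest peak of the list. The summits at *SEP3* lay 18 bp apart, 2753 bp upstream of the gene in *flc-3* and 2735 bp upstream in WT. At *SOC1*, an integrator of flowering signals, the fold-enrichment was 5.54 in *flc-3* and 9.45 in WT, with summits 2 bp apart and 28 bp and 30 bp upstream of the gene. *AGL19*, a promoter of flowering after cold, had 3.82 in *flc-3* and 6.89 in WT. At *SHP2*, a gene of fruit and carpel development, the values were 3.47 in *flc-3* and 4.61 in WT. All 4 sites had lower values in *flc-3*, and the summits moved by 18 bp or less.

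Of 15 AP2-like, RAV and age pathway genes, 10 had a peak in WT, and 8 of these had none in *flc-3*, compared with 71.5% of all genes bound in WT. This count rests on few genes and lies near the overall share. The lost sites included those of the floral repressors *AP2*, *TOE1*, *TOE2*, *TOE3*, *TEM1* and *TEM2* and of the microRNA genes *MIR172A* and *MIR156D*. Their fold-enrichment in WT was between 3.06 at a second peak of *TOE2* and 5.37 at the first peak of the same gene. *SMZ*, another repressor of the AP2 family, was kept with 3.497 in *flc-3* and 3.737 in WT. *MIR156F*, which encodes a microRNA of the juvenile phase, was also kept, with 3.42 in *flc-3* and 3.97 in WT. By contrast, *MIR156E* was bound in *flc-3* only, with a fold-enrichment of 3.99, and FLC had 4.16 in *svp-41* and 3.18 in WT at this site.

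The 3 bound CONSTANS-like genes, *COL1*, *COL4* and *COL5*, had peaks of 4.01, 4.33 and 3.66 in WT and none in *flc-3*. Of 16 genes of light signalling, 6 were bound in WT. Of these 6, 5 were bound in WT only, namely the photoreceptor gene *CRY1* and the bHLH genes *PIF3*, *PIF4*, *PIF5* and *HFR1*. The fold-enrichment of these peaks in WT did not exceed 4.03. Over all genes bound in WT, 71.5% had no peak in *flc-3*, so both counts rest on few genes and lie near the overall share. *SPA2*, which encodes a partner of the ubiquitin ligase COP1, was the light signalling gene bound in both genotypes. The 2 lists place it very differently, as it ranked 1 in *flc-3* and 76 in WT. Among clock genes, *RVE2* was kept with 3.497 in *flc-3* and 4.41 in WT, *TIC* was kept with 3.68 in *flc-3* and 4.97 in WT, and *CCA1* was lost with 2.95 in WT. Some of these peaks were assigned to several genes, with 4 at *COL1* and 3 each at *HFR1*, *CCA1* and a second peak of *PIF4*. The summits at *COL5*, *CRY1* and this second *PIF4* peak lay downstream of the gene.

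In the cold response list, *CBF2*, *CBF3* and *RD29A* were bound in WT only, whereas *CBF1* and *COR47* were bound in both. Over all genes bound in WT, 71.5% were bound in WT only, and each list described here rests on few bound genes. The kept site of *CBF1* had 3.58 in *flc-3* and 9.06 in WT. *COR47*, which encodes a dehydrin, had a kept peak of 3.10 in *flc-3* and 3.04 in WT and a gained peak of 2.77 in *flc-3*. Of the gibberellin genes, *RGL2*, a DELLA repressor of gibberellin signalling, was kept with 5.30 in *flc-3* and 6.26 in WT. *GA2OX8*, which encodes a gibberellin-inactivating oxidase, was lost with 5.59 in WT, and *DDF1*, an AP2-type regulator of the same pathway, was lost with 4.56 in WT. Both bound genes of the auxin and jasmonate list were kept, compared with 28.5% of all genes bound in WT that were also bound in *flc-3*. By −log10(*P*) in WT they ranked 2 (*DFL1*) and 94 (*AOC4*), within the strongest quartile, of which 72.3% was kept. *DFL1*, an auxin-conjugating enzyme gene, had 5.87 in *flc-3* and 9.65 in WT, and *AOC4*, of jasmonate synthesis, had 3.74 in *flc-3* and 5.83 in WT. In the list of vernalization, autonomous pathway and chromatin genes, *FWA*, a homeobox gene that delays flowering when it is expressed outside the endosperm, was kept with 3.07 in *flc-3* and 5.77 in WT. *GRP7*, which encodes an RNA-binding protein under clock control, kept both of its peaks, with 3.76 and 3.04 in *flc-3* and 4.57 and 4.08 in WT.

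Among the MADS-box floral repressors, *AGL16* and *FLC* lost their peaks. The *AGL16* peak lay in an intron, 164 bp from the gene start, with a fold-enrichment of 7.71 in WT. The *FLC* peak (chr5:3179121-3179411) had a fold-enrichment of 3.75 in WT, with its summit in the first part of the coding sequence, 190 bp from the gene start. *FLC* is itself altered in *flc-3*, where a deletion removes sequence around the start codon, so at this locus loss of binding and loss of sequence cannot be told apart. At *SVP* the peaks covered the gene rather than 1 site. The peak in WT spanned 4826 bp (chr2:9578798-9583624) and covered 93.5% of the gene. In *flc-3* there were 2 peaks of 2400 bp and 505 bp, which together covered 68.3% of it. The FLC peaks at *SVP* measured 444 bp in *svp-41* and 484 bp in WT. The plants of both SVP:GFP groups carry an additional copy of *SVP* sequence in the fusion construct, which the *35S:GFP* control does not, and its part in these peaks was not tested.

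Kept sites were weaker in *flc-3*. The fold-enrichment was lower in *flc-3* than in WT at 118 of the 148 pairs (79.7%) and higher at 30 (20.3%). The median over the pairs was 3.83 in *flc-3* and 5.88 in WT. The median log2 ratio of *flc-3* over WT was −0.55, with quartiles of −0.80 and −0.19 and a range of −1.537 to 1.002. The value was lower by 1.5 times or more at 72 pairs and higher by as much at 6. Each value is a ratio to the same *35S:GFP* control, and both depend on the quality of the ChIP in each genotype, which the lists do not give.

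**Figure D2:**
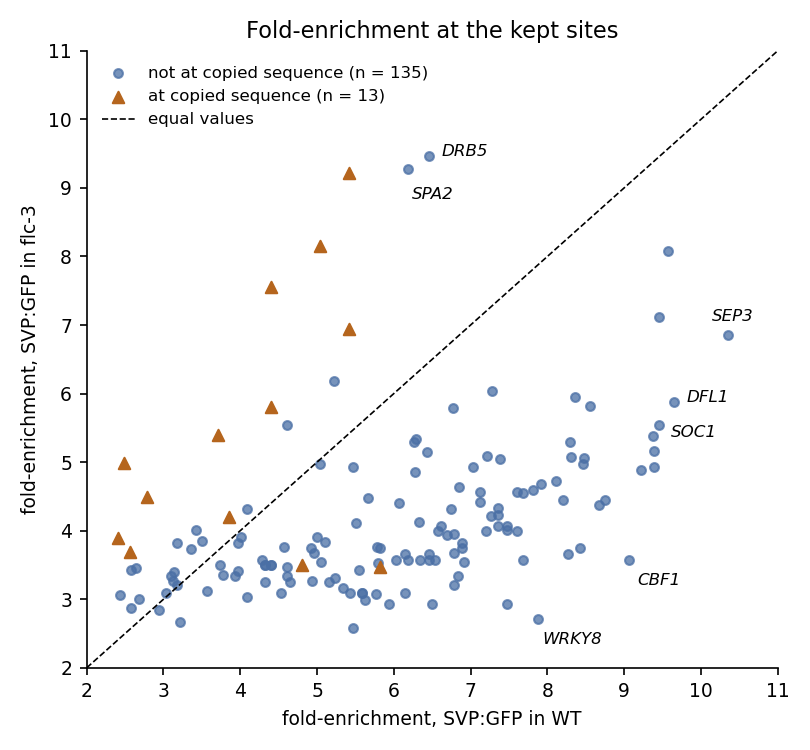
Fold-enrichment in *flc-3* (y axis) against that in WT (x axis) for the 148 kept pairs. Triangles mark 13 pairs at copied sequence, of which 11 lie above the dashed line of equal values, and circles mark the other 135 pairs, of which 116 lie below it.

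The sites at either end of this range were of different kinds. The 6 pairs with a value higher by 1.5 times or more all lay at copied sequence, where 150 bp or more of the window around the summit had a second match of at least 95% identity elsewhere. The 5 highest ratios were near *AT1G54920*, at *AT4G08760* and at 3 sites with no assigned gene in the first 100 kb of chromosome 2. At *AT1G54920* the fold-enrichment was 4.99 in *flc-3* and 2.49 in WT. Outside copied sequence, the highest ratios were at *SPA2*, with a ratio of 1.499, and at *DRB5*/*GDPD2*, with a ratio of 1.467. *DRB5* encodes a double-stranded RNA binding protein. The *DRB5*/*GDPD2* site, with its *flc-3* summit 804 bp upstream of *GDPD2*, had 9.47 in *flc-3* and 6.46 in WT. Leaving out copied sequence gave a median log2 ratio of −0.62 over 135 pairs, of which 116 were lower in *flc-3*.

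The 5 lowest ratios were at single-copy sites, 1 of them the site of *CBF1* described above. *WRKY8*, a stress-related transcription factor gene, had 2.72 in *flc-3* and 7.88 in WT. *CINV2*, which encodes a cytosolic invertase, had 2.92 in *flc-3* and 7.48 in WT. The site shared by *MDAR6* and *AT1G63950* had 3.66 in *flc-3* and 8.27 in WT, and that at *AT3G59930* had 3.74 in *flc-3* and 8.43 in WT. By −log10(*P*), these 5 sites ranked between 131 and 241 in *flc-3* and between 12 and 38 in WT.

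The order of the kept sites was only partly shared. Over the 148 pairs, Spearman's rho between the fold-enrichment in *flc-3* and in WT was 0.47, and over the 135 pairs outside copied sequence it was 0.60. The sites share the control library set and, within a list, the merged libraries, so these values are descriptive.

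At kept sites the summits of the genotypes lay close together. Kept sites were defined by the overlap of their peaks, so large shifts were limited in advance. The median distance between the summits of a pair was 30 bp, with quartiles of 11 bp and 63.5 bp. The summits lay within 50 bp at 107 pairs (72.3%), within 100 bp at 124 (83.8%) and within 200 bp at 138 (93.2%). The largest shift, 2967 bp, was between the second *flc-3* peak and the wide WT peak at *SVP*. The next were 929 bp at *ERD15*, a gene of dehydration response, then 795 bp and 655 bp in the copied region of chromosome 2, and 428 bp at *GUT15*. At each of these sites the WT peak was at least 1012 bp wide. Peaks in *flc-3* were narrower than their partner in WT at 132 of 148 pairs (89.2%), with a median width ratio of 0.70 and median widths of 468 bp in *flc-3* and 663 bp in WT. In 112 pairs the *flc-3* peak lay entirely inside the WT peak. Width and fold-enrichment were both lower at most pairs, and whether the width follows from the lower signal was not tested.

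Strength in WT separated kept from lost sites. When the WT peaks were divided into quartiles by −log10(*P*), 94 of 130 peaks (72.3%; 95% Wilson interval 64.1% to 79.3%) were kept in the strongest quartile, 34 of 131 in the second, 9 of 131 (6.87%) in the third and 7 of 131 (5.34%; 2.61% to 10.6%) in the weakest. The peaks in *flc-3* did not show this order, with 43 of 61 (70.5%) kept in the strongest quartile, 37 of 62 (59.7%) in the second, 43 of 61 (70.5%) in the third and 25 of 62 (40.3%; 29.0% to 52.7%) in the weakest. Intervals cover counting error only.

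**Figure D3:**
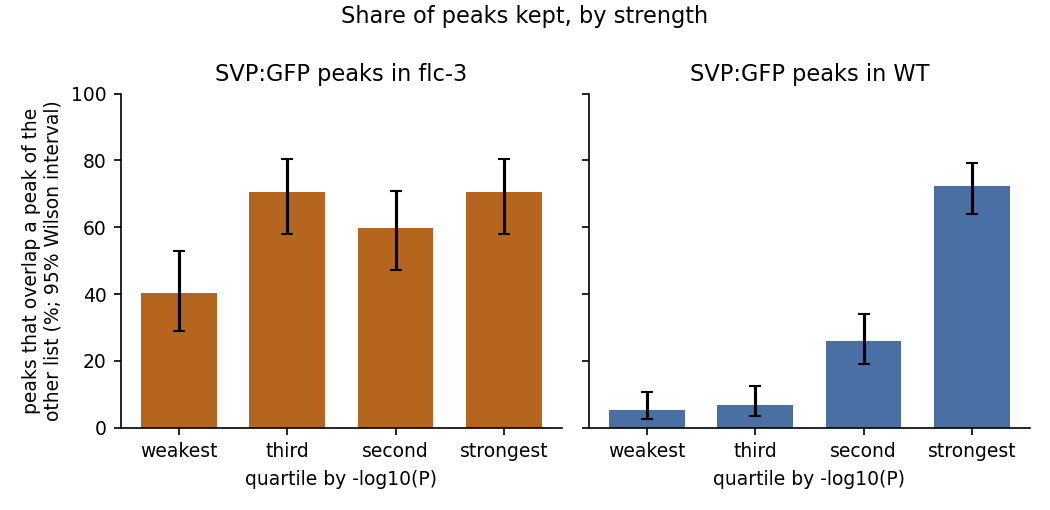
Share of SVP:GFP peaks that overlap a peak of the other genotype (y axis, %, with 95% Wilson intervals) in quartiles of each list by −log10(*P*) (x axis), in *flc-3* (left) and in WT (right). In WT the share was 72.3% in the strongest quartile and 5.34% in the weakest.

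The scale of −log10(*P*) differed between the lists. Among peaks outside copied sequence with a fold-enrichment from 3 to 3.5, the median −log10(*P*) was 14.0 over 51 peaks in *flc-3* and 23.2 over 141 peaks in WT. Between 4 and 5 it was 27.2 over 38 peaks in *flc-3* and 44.7 over 78 peaks in WT. A peak of a given fold-enrichment therefore had a lower −log10(*P*) in *flc-3*. The methods of the study also state that fewer top-ranked peaks per sample entered the check of reproducibility in *flc-3* than in WT. How far either limited the number of peaks called in *flc-3* was not tested. At equal fold-enrichment the share kept also differed, as 38 of 56 *flc-3* peaks (67.9%) and 9 of 151 WT peaks (5.96%) were kept between 3 and 3.5. Peaks of equal fold-enrichment differed in −log10(*P*), so this comparison does not remove the difference in scale. The lowest fold-enrichment of a kept *flc-3* peak was 2.57, and most kept sites had lower values in *flc-3* than in WT. Between 5 and 7, 22 of 23 *flc-3* peaks (95.7%) and 53 of 91 WT peaks (58.2%) were kept. When the WT list was limited to its 246 peaks of highest −log10(*P*), 51.2% of them were kept and 120 were lost.

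Lost peaks had a median fold-enrichment of 3.46 and a median width of 591 bp in WT, compared with 6.04 and 657.5 bp for the kept peaks in WT. Strong peaks were nevertheless among them. The 10 lost peaks of highest −log10(*P*) ranked between 13 and 85 in WT, and 7 of the 10 summits lay upstream of a gene. The strongest was between *RLP33*, a receptor-like protein gene, and *AT3G05670*, with a fold-enrichment of 8.94 and a −log10(*P*) of 161.1. *AGL16* followed with a −log10(*P*) of 125.9, then a peak downstream of *AT1G20380* with 116.6 and the peak at *ZFN1* and *AT3G02810* with 115.6. The others were at *AT1G64625*, the receptor kinase gene *SRF3*, the jasmonate repressor gene *JAZ6*, *AT1G78070*, the protein kinase gene *SIP3* and the transcription factor gene *WRKY6*, with fold-enrichments between 5.31 and 6.73.

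FLC itself was found at 6 of these 10 lost sites in *svp-41* and in WT. At 3 of them the FLC peak was lower in *svp-41*: it had 4.20 in *svp-41* and 14.0 in WT at *RLP33*/*AT3G05670*, 3.99 in *svp-41* and 11.5 in WT at *AGL16*, and 4.11 in *svp-41* and 10.8 in WT at *JAZ6*. At the other 3 it was higher in *svp-41*, with 15.1 in *svp-41* and 7.86 in WT at *AT1G20380*, 12.1 in *svp-41* and 9.01 in WT at *SRF3*, and 6.29 in *svp-41* and 3.60 in WT at *ZFN1*/*AT3G02810*. These values come from lists that were called separately and are shown side by side.

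Over all classes, FLC peaks in *svp-41* overlapped 37 of 98 gained peaks (37.8%), 49 of 148 kept *flc-3* peaks (33.1%) and 66 of 379 lost peaks (17.4%). Outside copied sequence the order of gained and kept peaks was the opposite, with FLC in *svp-41* at 10 of 51 gained peaks (19.6%), 38 of 135 kept *flc-3* peaks (28.1%) and 63 of 361 lost peaks (17.5%). FLC peaks in WT overlapped 19 gained peaks (19.4%), 48 kept *flc-3* peaks (32.4%) and 97 lost peaks (25.6%), and outside copied sequence 6 gained (11.8%), 37 kept *flc-3* (27.4%) and 95 lost peaks (26.3%). For comparison, FLC peaks overlapped 35.0% of all *flc-3* peaks and 21.8% of all WT peaks when FLC was taken in *svp-41*, and 27.2% of all *flc-3* peaks and 27.3% of all WT peaks when FLC was taken in WT. Of the 97 lost peaks with an FLC peak in WT, 45 had none in *svp-41*, whereas this was so at 4 of the 46 kept WT peaks with an FLC peak in WT. The FLC peaks in WT were weaker at the lost sites, with a median fold-enrichment of 3.497 against 5.72 at the kept sites. Whether the difference in counts follows from FLC peak strength was not tested. Over its whole list of FLC peaks in WT, the study reports a share without a peak in *svp-41* that is close to that at the lost sites. The count at lost sites is therefore not read as particular to them. The shares of SVP:GFP peaks with FLC in WT differed between the quartiles. In the strongest quartile of WT peaks, FLC in WT overlapped 16 of 36 lost peaks (44.4%; 29.5% to 60.4%) and 25 of 94 kept peaks (26.6%; 18.7% to 36.3%), and in the second quartile 43 of 97 lost peaks (44.3%) and 17 of 34 kept peaks. In the third quartile it overlapped 18 of 122 lost peaks (14.8%), and in the weakest 20 of 124 (16.1%).

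Kept sites with and without FLC also differed in the size of the difference between genotypes. At 49 pairs with an FLC peak in WT the median log2 ratio of *flc-3* over WT was −0.24, and at 99 pairs with none it was −0.69. Outside copied sequence these medians were −0.32 over 38 pairs and −0.69 over 97 pairs. The summit shift was 17 bp in the median at pairs with FLC and 40 bp at pairs without. The median difference was thus smaller where FLC was present in WT, but the 2 groups were not matched for peak strength in WT. Of the kept WT peaks, FLC in WT overlapped 25 of 94 in the strongest quartile and 17 of 34 in the second. Of the 38 single-copy pairs with FLC, 15 were lower by 1.5 times or more in *flc-3*, as were 56 of the 97 without.

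The gained peaks were unlike the kept ones in most respects. They had a median fold-enrichment of 2.62 and a median width of 241.5 bp in *flc-3*, compared with 3.83 and 468 bp for kept *flc-3* peaks. Peaks narrower than 200 bp made up 44 of the 98 gained peaks (44.9%) and 2 of the 148 kept *flc-3* peaks (1.35%). Copied sequence held 47 gained peaks (48.0%; 38.3% to 57.7%), 13 kept *flc-3* peaks (8.78%), 18 lost peaks (4.75%) and 10.1% of windows placed every 20 kb along the genome. Of the gained peaks, 22 matched sequence of the chloroplast or mitochondrial genome, and 0 of the 148 kept *flc-3* peaks (upper Wilson limit 2.53%) and 0 of the 379 lost peaks (1.003%) did so. In addition, 39 gained peaks (39.8%) had no assigned gene, against 14 kept *flc-3* peaks (9.46%) and 26 lost peaks (6.86%). Reads from copied sequence can be placed at any of the copies, and their part in these gained peaks was not tested. Outside copied sequence, 51 gained peaks remained.

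**Figure D4:**
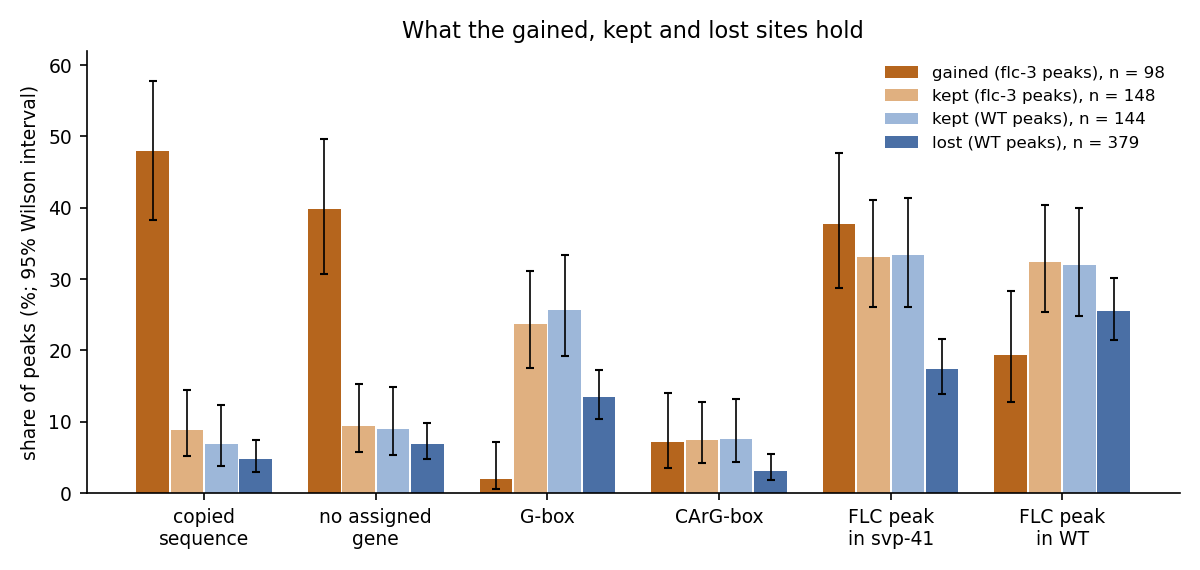
Share of gained, kept and lost SVP:GFP peaks (y axis, %, with 95% Wilson intervals) at copied sequence, without an assigned gene, with a G-box or CArG-box within 100 bp of the summit, and with an overlapping FLC peak in *svp-41* or in WT. Copied sequence held 48.0% of gained peaks and 4.75% of lost peaks, and a G-box lay at 2.04% of gained peaks and 25.7% of kept WT peaks.

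The largest group of gained peaks at 1 gene was at *CLF*, which encodes a Polycomb histone methyltransferase that acts on *FLC* and other flowering genes. The gene (chr2:9955092-9960386, plus strand) carried 9 separate peaks in *flc-3*, more than any other gene in either list. Their fold-enrichment was between 2.55 and 4.95 and their width between 83 bp and 672 bp. All 9 summits lay in exons, and 100% of the 2524 bp of the gene that the peaks covered was exon sequence, although exons make up 65.3% of the gene. The peaks covered 73.0% of the exon bases and 0% of the intron bases. SVP:GFP in WT, FLC in *svp-41* and FLC in WT had no peak within 3 kb of *CLF*. Of the other 89 gained peaks, 9 lay to at least 95% in exons (10.1%), as did 12 of 148 kept *flc-3* peaks (8.11%) and 18 of 379 lost peaks (4.75%), and no further gene had more than 1 such gained peak. Whether these reads came from the chromosomal gene was not tested.

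**Figure D5:**
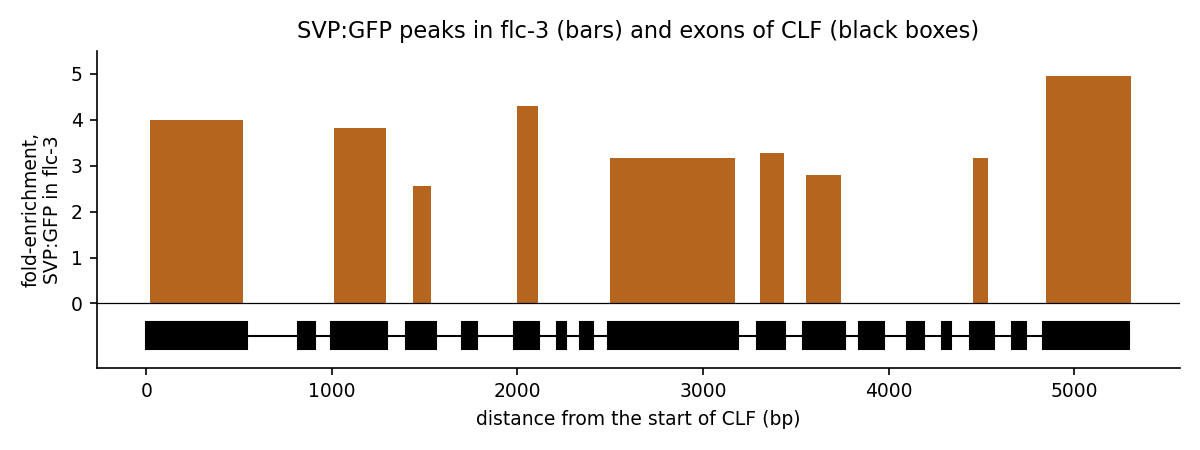
The 9 SVP:GFP peaks in *flc-3* at *CLF* (bars, with the fold-enrichment on the y axis) and the exons of the gene (black boxes, joined by introns), by distance from the start of the gene in bp. Within the gene every bar lies over an exon, and no peak covers an intron.

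The 10 gained peaks of highest −log10(*P*) reflected these groups, as 3 were at copied sequence, 3 at *CLF* and 6 were narrower than 200 bp. The strongest, with a −log10(*P*) of 48.0 and a width of 159 bp, lay near the start of chromosome 2 (chr2:65867-66026). The gained peak with the highest fold-enrichment, 5.71 in *flc-3*, was downstream of *ZF14*, a transporter gene, where FLC had 3.88 in *svp-41* and 3.07 in WT. A peak of 88 bp between *G4*, which encodes chlorophyll synthase, and *SAC8*, a phosphoinositide phosphatase gene, had a fold-enrichment of 4.005. Further gained peaks outside copied sequence were at *AT1G30780* with 2.69 and in an intron of *AT3G27240* with 2.42. Another 2 had no assigned gene, on chromosome 4 with 3.14 and on chromosome 2 with 2.62.

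*FT*, which encodes the mobile flowering signal, was bound by SVP:GFP in *flc-3* only. The gained peak (chr1:24330603-24331682) was 1079 bp wide with its summit 56 bp upstream of the gene, with a fold-enrichment of 2.12 and a rank of 181 by −log10(*P*). The nearest summit in WT was 78685 bp away. FLC had a peak of 6.10 at this place in *svp-41* and none in WT. After *CLF*, copied sequence and peaks without a gene were set aside, 35 gained peaks remained, with a median fold-enrichment of 3.05 and a median width of 569 bp. Of these 35, 13 lay upstream of a gene, 5 had a CArG-box and 1 a G-box within 100 bp of the summit, and FLC peaks were present at 8 of them in *svp-41* and at 6 in WT.

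The motif CACGTG, which reads the same on both strands, lay within 100 bp of the summit at 2 of 98 gained peaks (2.04%), 35 of 148 kept *flc-3* peaks (23.6%), 37 of 144 kept WT peaks (25.7%; 19.3% to 33.4%) and 51 of 379 lost peaks (13.5%; 10.4% to 17.3%). Windows of 200 bp contained it at 2.20% across the genome and at 3.001% upstream of genes. The higher share at kept than at lost peaks was not found within any quartile of WT peaks. A G-box lay at 16 of 36 lost peaks (44.4%) and 34 of 94 kept peaks (36.2%) in the strongest quartile, and at 14 of 97 lost peaks (14.4%) and 3 of 34 kept peaks (8.82%) in the second. In the third it lay at 11 of 122 lost and 0 of 9 kept peaks, and in the weakest at 10 of 124 lost and 0 of 7 kept peaks. At all 37 kept WT peaks with a G-box the fold-enrichment was lower in *flc-3*, with a median log2 ratio of −0.76. Over all 148 pairs it was lower at 79.7%, with a median of −0.55. As 34 of the 37 were in the strongest quartile of WT peaks, the G-box was not separated from peak strength.

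The CArG-box, searched on both strands with only A and T between CC and GG, was found at 7 of 98 gained peaks (7.14%), 11 of 148 kept *flc-3* peaks (7.43%), 11 of 144 kept WT peaks (7.64%; 4.32% to 13.2%) and 12 of 379 lost peaks (3.17%; 1.82% to 5.45%). The share was 1.23% of genome windows and 1.41% of upstream windows. At the 11 pairs with a CArG-box at the WT summit the median log2 ratio was −0.05, with 7 lower and 4 higher in *flc-3*, the 4 higher including *SPA2* and *DRB5*/*GDPD2*. Both motifs together were seen at 2 lost peaks and at 0 gained and 0 kept peaks. A match shows only that these letters are in the window, and the strict form of the motif leaves out variants.

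Summits lay upstream of a gene, within 3 kb, at 22 of 98 gained peaks (22.4%), 66 of 148 kept *flc-3* peaks (44.6%) and 185 of 379 lost peaks (48.8%), against 24.9% of positions along the genome. Within 500 bp of a gene start were 15 gained peaks (15.3%), 73 kept *flc-3* peaks (49.3%) and 141 lost peaks (37.2%; 32.5% to 42.2%). Sequence with fewer than 10 gene starts per 100 kb held 24 gained peaks (24.5%), 5 kept *flc-3* peaks (3.38%) and 3 lost peaks (0.79%), and it makes up 13.4% of the genome. Outside copied sequence it held 2 of 51 gained peaks (3.92%), 3 of 135 kept *flc-3* peaks (2.22%) and 2 of 361 lost peaks (0.55%).

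The chromosomes took unequal parts in the gain. Chromosome 2, which makes up 16.5% of the genome, held 44 of the 98 gained peaks (44.9%), 38 of the 148 kept *flc-3* peaks and 70 of the 379 lost peaks (18.5%). Of the 44, 24 lay at copied sequence, 15 of them matching an organelle genome, and 9 lay at *CLF*. The first 100 kb of this chromosome held 12 peaks in *flc-3* and 4 in WT. Gained peaks numbered 14 on chromosome 1, 14 on chromosome 3, 17 on chromosome 4 and 9 on chromosome 5. Lost peaks were spread more evenly, with 103 on chromosome 1 (27.2%), 69 on chromosome 3 (18.2%), 61 on chromosome 4 (16.1%) and 76 on chromosome 5 (20.1%), where these chromosomes make up 25.5%, 19.7%, 15.6% and 22.6% of the genome. The share of WT peaks kept was between 22.6% on chromosome 1 and 33.3% on chromosome 2.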

How the data were processed

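Per the labels and the methods of the study, the authors processed reads with CASAVA 1.8, aligned them to TAIR10 with Bowtie2 2.0.2, called peaks with MACS against the combined control, kept peaks reproducible between samples by IDR, refined them with NarrowPeaks, and assigned genes from 3 kb upstream to 1 kb downstream. Each deposited list gives start, end, summit offset, fold-enrichment (a ratio of ChIP over control) and −log10(*P*) of each merged peak. Peaks of single samples and read depth were not used here. The number of value columns left unused was 0.

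Lists were compared in Python 3.11.15 with pandas 2.3.3, and overlaps were tested on simulated data against bedtools 2.31.1. Sequence and gene positions came from TAIR10.1, whose chromosome lengths hold all peaks. How the values of merged peaks were chosen, and whether starts count from 0 or 1, is not given in the sources used here. All 311 pairs of an *flc-3* peak and a protein-coding gene and all 779 pairs in WT lay within the authors' window. Gene symbols were taken from RefSeq, which listed 298 of the 303 genes in *flc-3* and 759 of the 773 in WT. Positions used the transcript with the longest coding sequence, and a summit inside a gene was counted there before any promoter. Copies of the 200 bp around a summit were searched with blastn 2.17.0. Intervals of shares are 95% Wilson intervals.

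Named genes were those of the 11 lists with a peak, the 5 kept pairs of highest −log10(*P*) in *flc-3*, highest or lowest ratio, or largest summit shift, and the 10 lost and 10 gained peaks of highest −log10(*P*), the latter also outside copied sequence. The sequences shown and *SZF1* were chosen after their values were seen. The sites and lists were chosen with earlier results of these data known. Alternatives changed the overlap rule, the peak threshold, the gene window, the motif window and the treatment of copied sequence and *CLF*.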

Additional observations from a re-analysis of the deposited data

How the results depend on the processing

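Of 187 values recomputed under the alternatives, 147 stayed within 1.5 times of a count or within the 95% interval of a share or median, and 40 moved. Other definitions of overlap and of gene density, and genes assigned again from the annotation, moved none of them. When peaks of either list under a −log10(*P*) of 20 were left out, 75 *flc-3* peaks were kept, 37 were gained and 15.9% of WT peaks were kept, 109 genes were shared and 26 found in *flc-3* only, the median summit shift was 18 bp, and FLC in WT overlapped 32.4% of gained and 42.5% of kept peaks. With the minimum −log10(*P*) of WT applied to *flc-3*, these were 94 kept, 46 gained, 17.6% of WT peaks, 136 shared genes and 34 in *flc-3* only, and FLC in *svp-41* overlapped 47.8% of gained peaks. With lists of equal size, 120 peaks were lost, 51.2% of WT peaks were kept, 185 genes were found in WT only, and FLC overlapped 25% of lost peaks in *svp-41* and 45.0% in WT. With a fold-enrichment of at least 3, 45 peaks were gained, 50 genes were found in *flc-3* only and FLC in WT overlapped 31.1% of gained peaks. Without copied sequence, 51 peaks were gained, FLC overlapped 19.6% of them in *svp-41* and 11.8% in WT, and 3.92% lay in gene-poor sequence. Leaving out *CLF* as well, an alternative added after seeing the data, gave 42 gained peaks, 23.8% with FLC in *svp-41* and 4.76% in gene-poor sequence, whereas leaving out *CLF* alone moved none of the values.

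G-boxes within 50 bp of the summit were at 16.7% of kept and 9.50% of lost WT peaks, and in whole peaks at 40.3% and 24.0%. CArG-boxes in whole peaks were at 6.33% of lost peaks. With 1 mismatch they were at 23.5% of gained, 35.4% of kept and 34.8% of lost peaks, against 18.6% of genome windows. With promoters counted before genes, 38.8% of gained, 65.3% of kept and 65.4% of lost peaks lay upstream. The order of the classes in their share with FLC also changed. FLC in *svp-41* overlapped more gained than kept WT peaks as reported (37.8% and 33.3%) but fewer without copied sequence (19.6% and 29.3%) and at a fold-enrichment of at least 3 (28.9% and 34.1%). FLC in WT overlapped fewer lost than kept peaks as reported (25.6% and 31.9%) but more with lists of equal size (45.0% and 33.3%). It overlapped fewer gained than lost peaks as reported (19.4% and 25.6%) but more at a −log10(*P*) of at least 20 (32.4% and 26.9%), at the minimum −log10(*P*) of WT (28.3% and 25.1%) and at a fold-enrichment of at least 3 (31.1% and 27.1%). Apart from changes that follow from the number of peaks, the cause of these changes was not tested. No paired analysis was possible because each genotype has 1 merged list, and for the same reason no replicate could be left out.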
